A study of Mus musculus with 219 samples.

Results

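The mouse genes that encode core splicing factors were followed from 2-cell blastomeres to blastocysts after site-specific intracytoplasmic sperm injection (ICSI). A gene belonged to the set when its symbol began with Snrp (letters a to g or a digit), Sf3a, Sf3b, Srsf, Prpf or Lsm followed by a digit, and Snrpn was left out, which gave 57 of the 32285 genes in the deposited tables. The members were read in 7 role groups, namely 7 genes of the Sm ring, 4 proteins of the U1 and U2 small nuclear ribonucleoproteins (snRNPs), 9 subunits of SF3A and SF3B, 11 SR proteins, 13 PRPF proteins, 8 genes of the LSM rings and 5 other LSM genes. Oocytes of B6C3F1 females received 1 sperm head of CD1 males, all from the same cryopreserved batch, and the head was placed opposite the meiotic spindle (contralateral), next to it (ipsilateral) or between these positions (equatorial). Embryos were either bisected at the 2-cell stage and their single blastomeres sequenced, or bisected and each blastomere grown on its own to a blastocyst (monozygotic twins), or left whole and grown to a blastocyst (intact). The labels name no genetic alteration in any group, every embryo came from ICSI, and the analysis held 55 pairs of sister blastomeres (21 contralateral, 21 ipsilateral, 13 equatorial), 19 pairs of twin blastocysts (6, 7 and 6) and 31 intact blastocysts (11, 8 and 12). Counts of sisters or twins were added, so that the embryo was the replicate, and levels are given as CPM, the counts of a gene scaled by the total of that sum. A twin blastocyst develops from a single blastomere of a 2-cell embryo separated by bisection, and a pair of twins and an intact blastocyst therefore also differ in handling.

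The spliceosome removes introns from nuclear pre-mRNA. Its snRNPs each hold a small RNA inside a ring of Sm proteins (Snrpb, Snrpd1, Snrpd2, Snrpd3, Snrpe, Snrpf, Snrpg), while U6 RNA carries a ring of LSM proteins that contains Lsm8, and the related cytoplasmic ring with Lsm1 in its place takes part in mRNA decay. SF3A and SF3B are the parts of the U2 snRNP that hold the branch site, SR proteins bind exons and help to choose splice sites, and the PRPF proteins serve in the U4/U6.U5 tri-snRNP and in the catalytic steps. In mouse, the oocyte hands the embryo a store of mRNA that is largely cleared around the 2-cell stage, when transcription from the embryonic genome begins.

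The RefSeq promoter table (GRCm38.p6, 250 bases before to 50 bases after each start) held 48 of the 57 members. The letters CCGGAAG, the core bound by ETS factors, stood on either strand in 19 of the 48 (39.6%), against 9.93% of 27025 genes in that table and 17.3% of the 12753 genes with a mean of at least 1 CPM in the blastomeres or the blastocysts. In SF3A and SF3B, 6 of the 7 subunits with a promoter held the letters (Sf3a1, Sf3a2, Sf3a3, Sf3b2, Sf3b3 and Sf3b6), and Sf3b1 did not. Among the other groups, 4 of 11 PRPF genes, 4 of 11 SR genes and 2 of 5 Sm genes with a promoter held them. The same was true of 2 of 4 U1 and U2 proteins, 1 of 6 LSM ring genes and 0 of 4 other LSM genes. By stage, 10 of 21 promoters of members higher in intact blastocysts, 6 of 17 of those lower and 3 of 9 of those not past the threshold held them. The GC-box letters GGGCGG were found in 70.8% of members against 61.7% of the detected genes, CCAAT in 41.7% against 42.9%, and TATAAA in 8.33% against 10.2%. The YY1 letters AAGATGGCG stood in 3 member promoters (6.25% against 3.00%). Member promoters were rich in CpG, with a median of 24.5 per 300 bases against 18 in promoters of the detected genes and 7 in the whole table, and CCGGAAG contains a CpG itself, so the part of CpG content in its share was not tested. Between the stages, mRNA of the 3 SF3A subunits was higher in intact blastocysts and that of Sf3b1 lower. The Sm genes Snrpe and Snrpg held the letters too and were lower in intact blastocysts. A link between the letters and the direction was not tested. The calls of Sf3a3 and Sf3b1 were lost in some alternatives. Printed are the promoters of the 3 SF3A subunits and of Sf3b1. They lie at chr11:4160104-4160403 (Sf3a1, plus strand), chr10:80798485-80798784 (Sf3a2, plus strand), chr4:124714611-124714910 (Sf3a3, plus strand) and chr1:55027429-55027728 (Sf3b1, minus strand), 5′ to 3′ along the gene. Capitals mark CCGGAAG or its reverse complement and, in Sf3a1, also the YY1 letters.
Sf3a1: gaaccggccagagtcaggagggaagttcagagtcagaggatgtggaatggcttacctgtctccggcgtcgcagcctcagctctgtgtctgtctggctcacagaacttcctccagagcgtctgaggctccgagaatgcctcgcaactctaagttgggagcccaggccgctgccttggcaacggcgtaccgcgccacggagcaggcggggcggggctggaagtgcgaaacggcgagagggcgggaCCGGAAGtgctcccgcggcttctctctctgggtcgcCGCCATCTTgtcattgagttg
Sf3a2: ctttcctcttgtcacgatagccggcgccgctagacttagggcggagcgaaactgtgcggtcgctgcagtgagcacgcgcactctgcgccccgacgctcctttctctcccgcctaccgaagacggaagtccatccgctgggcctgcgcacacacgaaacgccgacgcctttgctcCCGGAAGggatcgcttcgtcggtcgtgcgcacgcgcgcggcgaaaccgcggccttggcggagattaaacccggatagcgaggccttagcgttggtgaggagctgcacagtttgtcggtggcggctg
Sf3a3: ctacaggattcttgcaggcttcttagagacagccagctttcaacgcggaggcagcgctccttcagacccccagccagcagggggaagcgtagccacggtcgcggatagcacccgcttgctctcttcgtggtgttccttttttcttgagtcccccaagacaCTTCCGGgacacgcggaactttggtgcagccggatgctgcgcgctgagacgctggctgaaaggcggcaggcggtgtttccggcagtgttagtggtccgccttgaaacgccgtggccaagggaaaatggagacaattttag
Sf3b1: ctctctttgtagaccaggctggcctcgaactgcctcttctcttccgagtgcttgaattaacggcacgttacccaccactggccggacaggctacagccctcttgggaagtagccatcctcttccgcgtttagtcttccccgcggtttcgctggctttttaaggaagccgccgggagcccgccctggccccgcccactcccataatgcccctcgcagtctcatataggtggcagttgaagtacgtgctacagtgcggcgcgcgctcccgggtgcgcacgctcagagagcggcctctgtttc

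A match to these letters describes the sequence and shows no binding. In the GENCODE annotation, 11 of the 57 members (19.3%) had the start of another protein-coding gene within 1000 bases on the opposite strand, against 6.69% of 21702 protein-coding genes, among them Lsm1 beside Bag4, Lsm3 beside Xpc and Srsf7 beside Ttc39d. This background was not limited to genes detected in these embryos, and the share among those was not taken. Reads of 100 bases did not always separate members from related sequence. Of the 57 members, 26 shared at least 1 window of 100 bases with a transcript of another gene, 13 shared over 10% of their windows and 2 over 50%, namely Snrpf (78.3%, its partners including Ccdc38) and Srsf4 (62.5%, with Gm12992). Sf3b4 (36.9%), Lsm5 (31.6%), Srsf2 (30.6%, with its neighbours Mettl23 and Mfsd11) and Srsf3 (20.7%) followed. Values of these 6 genes are uncertain to that extent, because the alignment and counting could divide or drop shared reads.

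The blastomere libraries held 360474 to 2100561 counts (median 1340425), the twin blastocysts 713410 to 2161062 (median 1093478) and the intact blastocysts 234099 to 1254428 (median 705837). The labelled stages were compared with marker genes of the oocyte and 2-cell stage, of trophectoderm and of inner cell mass. The 6 oocyte and 2-cell markers (Gdf9, Bmp15, Zp3, Dppa3, Nlrp5, Zar1) summed to 2481 to 4028 CPM in 2-cell embryos, 330.2 to 683 CPM in twins and 0 to 403 CPM in intact blastocysts, and the 5 trophectoderm markers to 31.1 to 174, 2768 to 3361 and 2417 to 5706 CPM. In blastocysts the first sum was nearly all Dppa3, at 329 to 683 CPM in twins and 0 to 403 CPM in intact blastocysts. Gdf9, Bmp15, Zp3, Nlrp5 and Zar1 had twin medians of 0 to 0.502 CPM. The 5 inner cell mass markers summed to 86.6 to 323.8 CPM in 2-cell embryos, 547 to 828 CPM in twins and 70.1 to 706 CPM in intact blastocysts. This list therefore did not separate 2-cell embryos from intact blastocysts. Its genes Pou5f1 and Sox2 had higher medians in 2-cell embryos than in intact blastocysts, and Nanog, Gata6 and Pdgfra lower ones. The 6 cumulus cell markers summed to at most 39.1 CPM in any 2-cell embryo, and Amh and Inha had no count in any of the 55. The others were detected in part of the embryos. Tnfaip6 reached 37.1 CPM, Has2 18.8, Foxl2 11.6 and Ptgs2 9.49, with no count in 17, 28, 45 and 42 embryos. Of the 31 intact blastocysts, 7 stood apart with 8264 to 9868 detected genes, while every twin library had at least 10605. These 7 libraries held the highest intact level of 33 of the 57 members and the lowest of 40. The counts of members called against intact blastocysts, and some values, are therefore also given for the other 24. Ranges, fold changes and the further gene lists use all 31 where nothing else is said.

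In 2-cell embryos the 57 members together took 8374 CPM (median, range 7274 to 10036), close to 0.84% of the counts. By TPM, the 3 most abundant members were Sm ring genes. The length used for TPM covers all annotated exons of a gene and can exceed that of its transcript. It was 4199 bases for Lsm8, whose longest coding transcript held 708 windows of 100 bases. For Snrpf it was 861 bases, with 762 windows. The orders given here depend on the length used. Snrpe reached 1030.1 ± 139.2 TPM (transcript units, in which counts are divided by gene length before scaling; mean ± SD, n = 55), Snrpf 985 ± 148 and Snrpg 971 ± 145 TPM, and these 3 means lay within 1 SD of each other. The least abundant ring gene, Snrpb, stood at 85.4 ± 37.6 TPM, although the ring holds its 7 proteins in equal number. In the LSM rings the order ran from Lsm7 at 584 ± 81.8 TPM to Lsm8 at 51.6 ± 17.99 TPM, which lay within 1 SD of Lsm6 at 56.4 ± 21.8 TPM. Among the U1 and U2 proteins Snrpb2 was highest (292 ± 83.6 TPM) and Snrpa lowest (34.03 ± 15.7 TPM). In SF3A and SF3B the range ran from Sf3b6 (129.1 ± 42.6 TPM) to Sf3a2 (3.02 ± 3.00 TPM), and Prpf40b was the lowest PRPF gene (0.780 ± 1.54 TPM). Srsf7 was the highest SR gene (291 ± 128.8 TPM) and Srsf12 the lowest, with no count in 53 of 55 embryos. Among the other LSM genes Lsm10, a protein of the U7 snRNP that processes histone mRNA, was highest (468 ± 179 TPM) and its partner Lsm11 lowest (16.7 ± 8.53 TPM).

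Comparing 2-cell embryos with intact blastocysts asks how the splicing gene set differed between the stages. In edgeR's quasi-likelihood test with Benjamini-Hochberg adjustment over 12645 genes, 47 of the 56 members tested passed an adjusted p of 0.05, with 26 higher and 21 lower in intact blastocysts, while 84.9% of all genes passed (35.7% higher and 49.1% lower). The share of members called, 83.9%, was thus near the background. The median log2 fold change (intact blastocyst minus 2-cell) was 0.13 over members and -0.43 over all genes, and members lay 0.56 above the all-gene median. Under RLE factors the all-gene median was -0.34 and under total counts -0.11, and the members' calls became 26 higher with 21 lower and 31 higher with 18 lower. Of all genes, 4686 were higher and 6064 lower under RLE factors, and 5163 and 5663 under total counts. Srsf4, Prpf40b and Sf3a2 rested on low counts, with 0 counts in 12, 34 and 10 of the 55 embryos at the 2-cell stage. Blastomeres and blastocysts were tabulated separately, and part of the blastomeres were read in another format than the blastocysts. Most 2-cell embryos were on plate 1, while the labels name no plate for the blastocysts. Stage and batch therefore cannot be told apart, also where only the 2-cell embryos of plate 2 are used. Total counts of 2-cell embryos (1255481 to 3976094) and intact blastocysts (234099 to 1254428) did not overlap, so stage and depth cannot be told apart in the main fit. With counts thinned to equal totals (55 2-cell embryos, 25 intact), 47 of 53 members passed, 27 higher and 20 lower. Of 9476 genes, 87.4% passed there (3875 higher, 4405 lower). The medians were then 0.26 over members and -0.14 over all genes, a distance of 0.40. With only the 13 2-cell embryos of plate 2, 40 of 55 members were called, 21 higher and 19 lower, against 75.6% of 10292 genes (3898 higher, 3880 lower). The medians were then 0.18 over members and 0.06 over all genes, a distance of 0.12. With the 24 intact blastocysts of at least 10000 detected genes, 47 members passed, 26 higher and 21 lower, against 84.5% of 13297 genes, Sf3a3 did not, and the medians were 0.17 over members and -0.37 over all genes. In bulk embryos, fewer cells that express a gene and less of its mRNA per cell cannot be told apart.

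**Figure D1:**
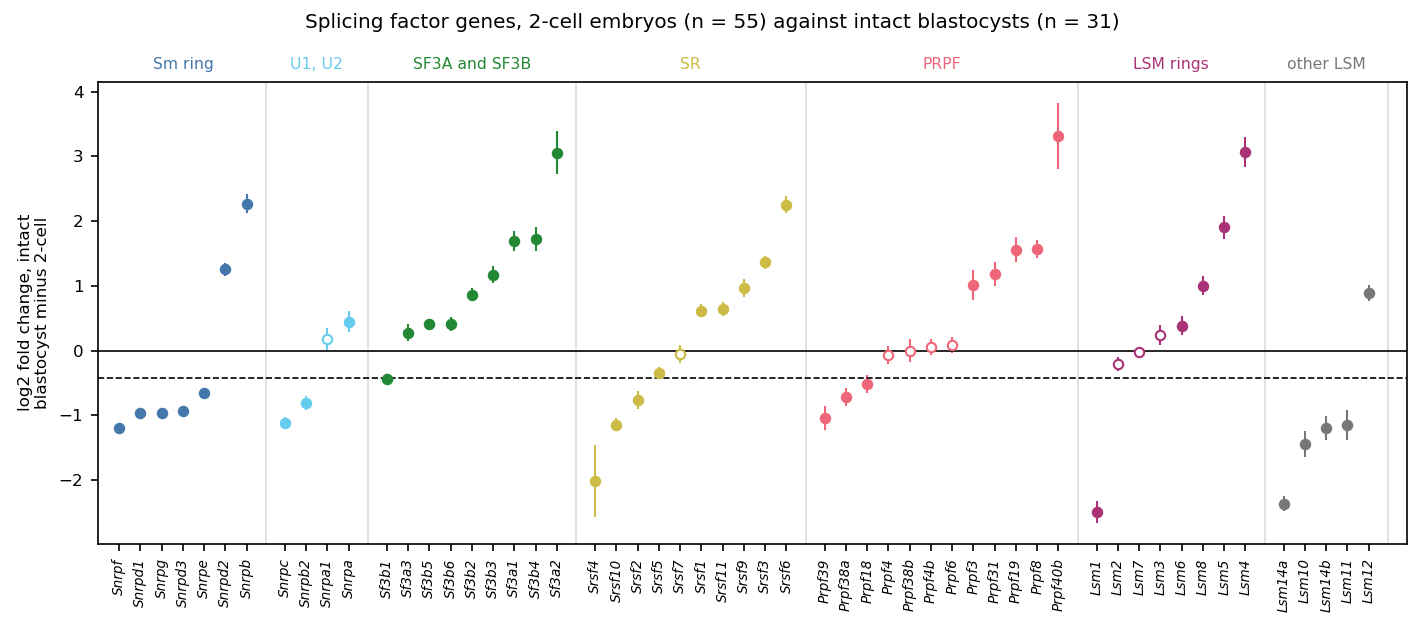
Log2 fold change (intact blastocyst minus 2-cell embryo) of 55 of the 56 members tested, by role group. Points are edgeR estimates with 1 SE, filled where the adjusted p was at most 0.05, and the dashed line marks the median of all genes (-0.43). Of the Sm ring 5 genes lie below 0 and 2 above, and of SF3A and SF3B 8 of 9 lie above 0.

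The Sm ring divided. Snrpb was at 0.339 to 111.97 CPM with a median of 47.9 in 2-cell embryos and at 72.1 to 463 CPM with a median of 314 in intact blastocysts, and rose by 2.27 ± 0.15 on the log2 scale (± SE, adjusted p = 5.92e-26, edgeR). Of the 31 intact blastocysts, 30 exceeded every 2-cell embryo. Snrpd2 also rose (1.25 ± 0.10), from a median of 92.2 to 270.2 CPM. The other 5 ring genes were lower in blastocysts, with log2 fold changes of -1.19 for Snrpf, -0.96 for Snrpg, -0.96 for Snrpd1, -0.94 for Snrpd3 and -0.66 for Snrpe. Snrpf lay at 193 to 370.4 CPM with a median of 246 in 2-cell embryos and 60.1 to 176 CPM with a median of 143 in intact blastocysts, with no shared value. Snrpg lay at 323 to 686 CPM with a median of 463 before and 191 to 437 CPM with a median of 295 after, so the stages overlapped. The ring's summed level had medians of 1947 CPM in 2-cell embryos (1576 to 2855) and 1842 CPM in intact blastocysts (1195 to 2329.9), and the TPM of Snrpb relative to Snrpd1 went from a median of 0.172 to 1.84. By these TPM, which depend on the gene lengths used, Snrpb was the rarer of this pair in 55 of 55 2-cell embryos and in 4 of 31 intact blastocysts. Of the U1 and U2 proteins, Snrpa of the U1 snRNP was higher in blastocysts (0.45 ± 0.16, adjusted p = 0.00878) and Snrpc of the same particle lower (-1.12 ± 0.10, adjusted p = 3.06e-19), as was Snrpb2 of the U2 snRNP (-0.81); Snrpa1 stood at 0.18 (adjusted p = 0.339). With only the 2-cell embryos of plate 2, Snrpa turned to -0.09.

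SF3A and SF3B moved largely together, with 8 of 9 genes higher in blastocysts. Sf3a1 was at 0.678 to 115.9 CPM with a median of 51.4 in 2-cell embryos and at 102.8 to 525 CPM with a median of 194 in intact blastocysts (1.69 ± 0.16, adjusted p = 1.89e-17, edgeR). Sf3a2 was barely seen in 2-cell embryos (0 to 8.31 CPM with a median of 1.70) and reached 7.82 to 55.3 CPM with a median of 24.5 in blastocysts (3.06 ± 0.34). The remaining rises were 1.73 for Sf3b4, 1.17 for Sf3b3, 0.86 for Sf3b2, 0.41 for Sf3b6, 0.40 for Sf3b5 and 0.28 for Sf3a3, the last of which did not pass without the 7 low-gene libraries. Sf3b1, the large subunit that contacts the branch site, was the exception at -0.43 ± 0.07 (adjusted p = 5.31e-08), a value close to the median of all genes, and it did not pass with total counts as the scaling (adjusted p = 0.115). Its levels were 246 to 594 CPM with a median of 392 and 176 to 444 CPM with a median of 368. Summed over the 9 genes, medians were 964 CPM in 2-cell embryos (787 to 1246) and 1639 CPM in intact blastocysts (1309.8 to 2247), and the ranges did not overlap.

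Of the 10 SR genes tested, 5 were higher in blastocysts and 4 lower. Srsf6 had the smallest adjusted p of all members that rose. It was at 12.4 to 102.2 CPM with a median of 43.1 in 2-cell embryos and at 117.5 to 402 CPM with a median of 264 in intact blastocysts, without overlap (2.25 ± 0.13, adjusted p = 1.13e-29, edgeR). Srsf3 was at 105.1 to 383 CPM with a median of 226 before and at 365 to 1226 CPM with a median of 775 after (1.37 ± 0.10), with overlap. Srsf9 (0.97), Srsf11 (0.64) and Srsf1 (0.62) were also higher. Srsf10, an SR protein that represses splicing when dephosphorylated, was lower (-1.14 ± 0.09, adjusted p = 3.80e-20), at 176 to 563 CPM with a median of 402 against 62.7 to 309 CPM with a median of 226. Srsf2 (-0.76), Srsf5 (-0.35) and Srsf4 (-2.01) were lower too. Against twin blastocysts in place of intact ones Srsf2 turned to 0.32, and Srsf5 did not pass with total counts. Srsf7, the SR gene with the highest TPM at the 2-cell stage, stood at -0.05 (adjusted p = 0.737).

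Among the PRPF genes 5 of 13 were higher in blastocysts and 4 lower. Prpf8, the scaffold of the catalytic core, was at 3.82 to 86.8 CPM with a median of 40.4 in 2-cell embryos and at 52.1 to 223 CPM with a median of 143 in intact blastocysts (1.56 ± 0.14, adjusted p = 7.36e-19). Prpf19, the ubiquitin ligase of the complex that carries its name, rose by 1.56, Prpf31 by 1.18 and Prpf3 by 1.01, the last pair being proteins of the U4/U6 snRNP. Prpf40b rose by 3.32 from near 0. The lower ones included Prpf39 (-1.04), which works with the U1 snRNP, as well as Prpf38a (-0.71) and Prpf18 (-0.51), the latter of the later catalytic step.

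In the LSM rings the gene that marks each ring moved its own way. Lsm1, of the cytoplasmic ring, was at 102.9 to 364 CPM with a median of 244 in 2-cell embryos and at 0 to 93.8 CPM with a median of 54.3 in intact blastocysts, without overlap (-2.49 ± 0.17, adjusted p = 1.34e-25, edgeR). Lsm8, of the nuclear ring on U6 RNA, was at 15.6 to 128.97 CPM with a median of 63.9 and at 8.01 to 296 CPM with a median of 169 (1.00 ± 0.14, adjusted p = 7.28e-10). The TPM of Lsm1 exceeded that of Lsm8 in 55 of 55 2-cell embryos, with a median ratio of 5.06, and was below it in 29 of 31 intact and 19 of 19 twin blastocysts, with median ratios of 0.368 and 0.627. These TPM used lengths of 3093 bases for Lsm1 and 4199 for Lsm8, over all annotated exons. The longest coding transcripts held 2564 and 708 windows of 100 bases. The size of the ratio, and which gene is the higher, depend on the lengths used, while the change of the ratio between the stages does not. The shared subunits Lsm4 (3.07 ± 0.23), Lsm5 (1.90) and Lsm6 (0.38) rose, whereas Lsm2, Lsm3 and Lsm7 had log2 fold changes of -0.21, 0.24 and -0.03 and did not pass. Lsm4 was at 0 to 57.4 CPM with a median of 19.9 in 2-cell embryos and at 29.9 to 367 CPM with a median of 231 in intact blastocysts.

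Of the other LSM genes 4 of 5 were lower in blastocysts. Lsm14a, an RNA-binding protein of P-bodies and translational repression, was at 511 to 744 CPM with a median of 614, and lay at 7.70 to 237 CPM with a median of 157 in intact blastocysts (-2.36 ± 0.11, adjusted p = 1.88e-35). The stages did not overlap for Lsm14a, Lsm1, Srsf6 and Snrpf, 4 of the 57 members, against 12.1% of the 16064 genes with a mean of at least 1 CPM. Lsm14b (-1.19) and both U7 proteins, Lsm10 (-1.44 ± 0.20) and Lsm11 (-1.15), were lower as well, and Lsm12 was higher (0.89).

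**Figure D2:**
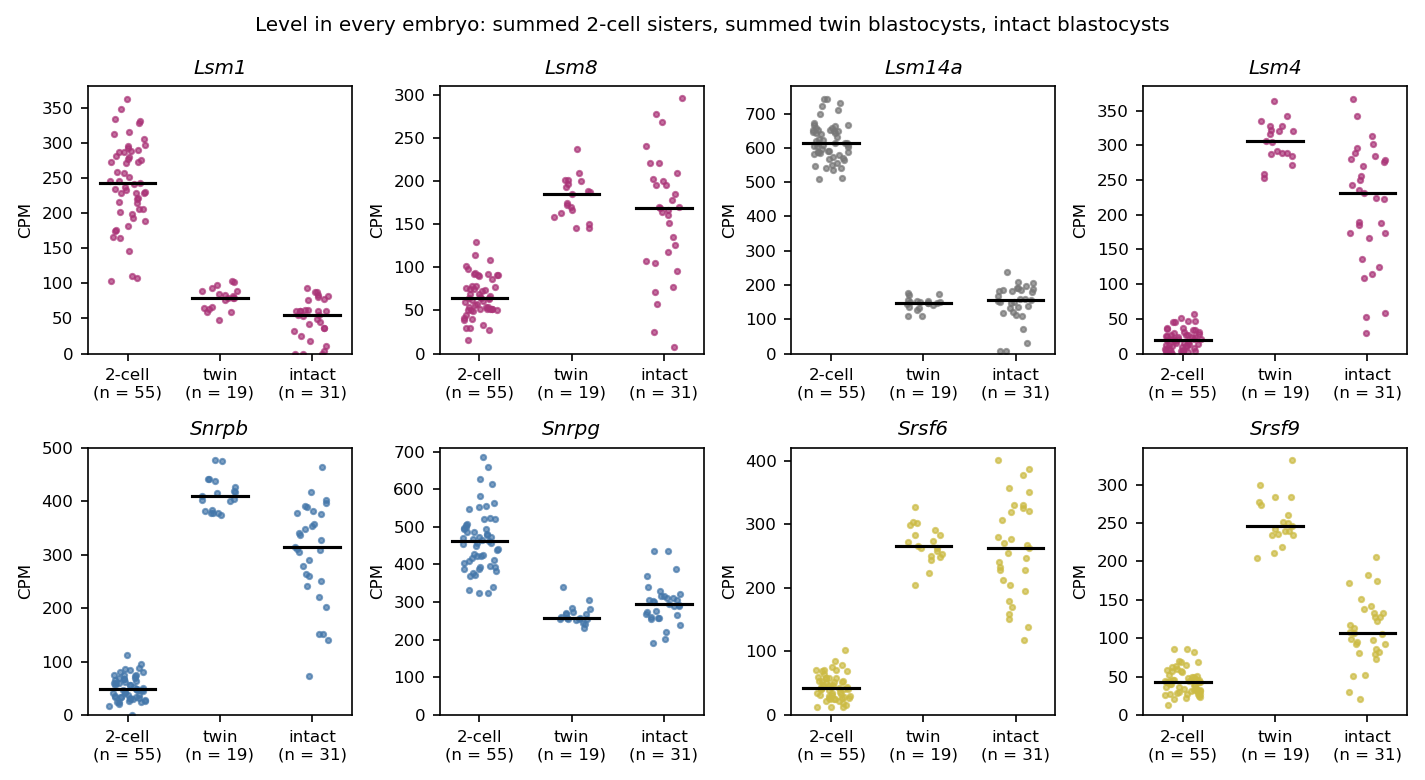
CPM of 8 members in each of 55 2-cell embryos (sister counts added), 19 twin pairs (twin counts added) and 31 intact blastocysts, with a bar at the median. Lsm1, Lsm14a and Snrpg have their highest medians in 2-cell embryos (244, 614 and 463 CPM) and the other 5 in blastocysts; Srsf9 has a median of 246 CPM in twins and 106.3 CPM in intact blastocysts.

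Other genes of the pathway, taken from 7 lists of splicing genes outside the set, were mostly called as well, 58 of their genes higher and 47 lower in blastocysts, or 88.2% of those tested against 84.9% of all genes. Of 26 hnRNP genes 19 were higher and 6 lower, with Hnrnpk at 1.49 and Hnrnpa3 at 1.28. Of 23 further snRNP genes 14 were higher and 6 lower, among them Sf1, which binds the branch site first (2.01), and Ppih (-2.07). Of 20 genes of the Prp19 complex and the catalytic steps 5 were higher and 12 lower, led by Cwc15 (-1.56) and Crnkl1 (-2.37). The kinases that phosphorylate SR proteins, Srpk1 (-2.04) and Srpk2 (-3.50), were lower, in a list of 16 with 9 higher and 6 lower. Of 7 exon junction genes 5 were lower and 1 higher, with Magoh at -2.04 and Sap18 at -1.34. In snRNP assembly 8 of 18 genes were higher and 7 lower, with Gemin7 at -1.59 and Smn1 at -1.08. In the minor spliceosome 2 of 9 were higher and 5 lower, with Zrsr2 at 1.43 and Pdcd7 at -1.43.

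The site of sperm deposition was compared in the summed 2-cell embryos. Contralateral against equatorial ICSI gave 7 of 55 members past the threshold (12.7%), 5 higher and 2 lower after contralateral ICSI, against 13.2% of 13141 genes (7.12% higher, 6.06% lower; edgeR with plate as a covariate). Ipsilateral against equatorial ICSI gave 3 of 55 members (5.45%), 1 higher and 2 lower, against 6.65% of genes (3.43% higher, 3.22% lower). These comparisons share the 13 equatorial embryos. Contralateral against ipsilateral ICSI gave no member and no gene by edgeR, although 8 members and 4.22% of genes (555) had an unadjusted p under 0.05. DESeq2 also called none, with 9 members and 683 genes at that level. Without a filter on low counts 3 members (2 higher, 1 lower) and 1577 of 24964 genes passed. In both comparisons with calls the share of members was near the background. At an unadjusted p under 0.05 stood 19 members for contralateral and 15 for ipsilateral against equatorial, with 26% and 19.6% of all genes. Median log2 fold changes were 0.08 over members and -0.00 over all genes for contralateral against equatorial, and 0.05 against 0.01 for ipsilateral against equatorial. Median total counts per embryo were 2675357 contralateral, 3050508 ipsilateral and 2179479 equatorial, and fits with depth covariates stand beside the genes.

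Lsm1 had the smallest adjusted p of the members that were higher after contralateral ICSI, and was the member higher after ipsilateral ICSI too. Its median and range were 274 (107.2 to 348) CPM after contralateral, 252 (164 to 364) CPM after ipsilateral and 182 (102.9 to 329.6) CPM after equatorial ICSI. The log2 fold change was 0.53 ± 0.12 for contralateral against equatorial (adjusted p = 0.00141, edgeR) and 0.42 ± 0.12 for ipsilateral against equatorial (adjusted p = 0.020). The ranges of the 3 sites overlapped. Lsm3, a subunit of both rings, was at 128.9 (47.2 to 171) CPM after contralateral, 93.4 (54.4 to 188) CPM after ipsilateral and 61.7 (20.9 to 154) CPM after equatorial ICSI, with 0.75 ± 0.20 for contralateral against equatorial (adjusted p = 0.00839). Lsm10 of the U7 snRNP had 149.6 (81.4 to 243) CPM after contralateral, 131.1 (79.97 to 213) CPM after ipsilateral and 85.4 (7.17 to 203) CPM after equatorial ICSI, with 0.83 ± 0.22 (adjusted p = 0.00654). The Sm genes Snrpd1 (0.37 ± 0.08, adjusted p = 0.00145) and Snrpd3 (0.26 ± 0.08, adjusted p = 0.0265) were also higher after contralateral ICSI. Snrpd1 lay at 343 (223 to 453) CPM after contralateral, 278 (244 to 361) CPM after ipsilateral and 267 (221 to 345) CPM after equatorial ICSI. Snrpd3 lay at 410.0 (296 to 499.6) CPM after contralateral, 355 (280.1 to 468) CPM after ipsilateral and 335 (229 to 446) CPM after equatorial ICSI.

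Sf3b2 and Prpf38b were lower in both comparisons. Sf3b2 was at 124.5 (74.5 to 331) CPM after contralateral, 129.02 (68.3 to 185) CPM after ipsilateral and 177 (111.01 to 338) CPM after equatorial ICSI, which gave -0.52 ± 0.16 (adjusted p = 0.0162) and -0.68 ± 0.16 (adjusted p = 0.00494). Prpf38b, a factor of the precatalytic spliceosome, was at 133.8 (70.96 to 300.1) CPM after contralateral, 111.2 (64.5 to 189) CPM after ipsilateral and 218 (74.6 to 348) CPM after equatorial ICSI, which gave -0.53 ± 0.18 (adjusted p = 0.0330) and -0.74 ± 0.18 (adjusted p = 0.00668). On plate 1 alone (18, 13 and 11 embryos) all 7 contralateral and all 3 ipsilateral calls passed, with 0.65 and 0.55 for Lsm1, -0.59 and -0.63 for Sf3b2, and -0.52 and -0.74 for Prpf38b; on that plate 16.9% and 8.61% of 12864 genes were called. On plate 2 alone (3 contralateral, 8 ipsilateral and 2 equatorial embryos), an alternative chosen after seeing the data, edgeR called no member and no gene in either comparison, with 2 and 5 of 55 members and 853 and 906 of 15162 genes at an unadjusted p under 0.05. The log2 fold changes there were 0.04 and 0.02 for Lsm1, -0.02 and -0.59 for Sf3b2, and -0.48 and -0.67 for Prpf38b. For contralateral against equatorial ICSI they were 0.09 for Snrpd1, and they were of the other sign than over both plates for Lsm10 (-0.65), Lsm3 (-0.30) and Snrpd3 (-0.26). Whether the plates differed was not tested. With total count and detected genes as covariates, Sf3b2 and Prpf38b no longer passed in either comparison (adjusted p = 0.238 and 0.286 contralateral, 0.347 and 0.315 ipsilateral), nor did Lsm1 after ipsilateral ICSI (0.227), while the 5 genes higher after contralateral ICSI passed, and 10 members in all passed there, all higher, against 1067 of 13141 genes (649 higher, 418 lower). Ipsilateral against equatorial ICSI gave 51 genes in that fit, all higher, and no member. In 48 pairs with a mitochondrial share under 2%, 4 of the 7 contralateral and 2 of the 3 ipsilateral calls passed. Of 13022 genes, 8.48% and 4.55% were called in those pairs.

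**Figure D3:**
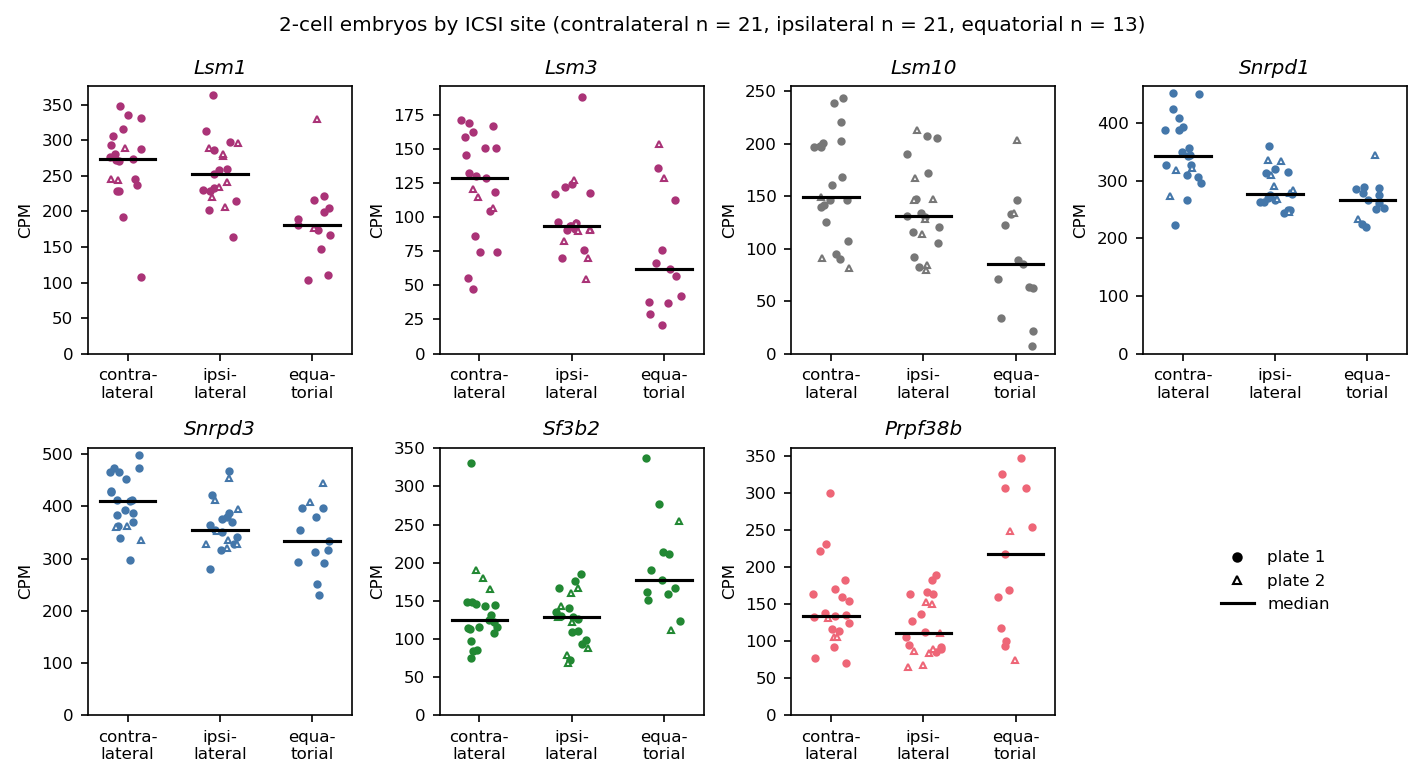
CPM of the 7 members called between ICSI sites in every 2-cell embryo, by site; filled circles are plate 1, open triangles plate 2, and bars are medians. Lsm1, Lsm3, Lsm10, Snrpd1 and Snrpd3 have their lowest median after equatorial ICSI (182 CPM for Lsm1), and Sf3b2 and Prpf38b their highest (177 and 218 CPM).

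The 3 members nearest to a difference between contralateral and ipsilateral ICSI were Snrpd1 (0.29 ± 0.08), Snrpb2 (0.41 ± 0.12) and Snrpe (0.20 ± 0.08), all with an adjusted p of 1 and all higher after contralateral ICSI. By role, 2 of 7 Sm genes, 2 of 8 LSM ring genes and 1 of 5 other LSM genes were higher after contralateral than after equatorial ICSI, and 1 of 9 SF3 and 1 of 12 PRPF genes were lower, with no call among 10 SR genes and 4 U1 and U2 proteins. In the 7 further splicing lists 28 genes were called for contralateral against equatorial (11 higher, 17 lower) and 9 for ipsilateral against equatorial (1 higher, 8 lower), which were 23.5% and 7.56% of those tested, against 13.2% and 6.65% of all genes. Both mago genes of the exon junction complex were higher after contralateral ICSI, Magohb by 1.14 and Magoh by 0.35, as was Snrnp27 of the tri-snRNP by 0.58. The lower genes included Srrm2 (-0.46), Luc7l3 (-0.60), Ctnnbl1 (-0.85), Pdcd7 (-0.65) and Hnrnpdl (-0.28), of which Luc7l3, Ctnnbl1, Pdcd7 and Hnrnpdl were lower after ipsilateral ICSI as well (-0.51, -0.73, -0.69 and -0.33). Cumulus markers summed to 0 to 39.1, 0 to 28.8 and 0 to 36.6 CPM in contralateral, ipsilateral and equatorial embryos.

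Sister blastomeres of 1 embryo were then set against blastomeres of other embryos, as the share of a gene's variance in log2 CPM that lay between embryos of the same site and plate. By limma's moderated F test, 23 of 54 members (42.6%) varied between embryos more than sisters differed, against 20% of 11712 genes. The share was highest for Snrpb2 (61.9%, adjusted p = 1.11e-05), Srsf7 (58.5%, 2.60e-06), Srsf3 (57.9%, 5.61e-06), Srsf2 (49.9%, 0.0118) and Snrpd1 (47.7%, 0.0163). Snrpb2 ranged over 87.97 to 437 CPM among the 110 blastomeres (median 236), sisters differed by a median of 0.23 on the log2(CPM + 1) scale, and unrelated blastomeres of the same site and plate by 0.39. For Srsf7, which ranged over 35.7 to 819 CPM, these differences were 0.40 and 0.79, and for Srsf3 0.33 and 0.56. Sisters were closer than unrelated blastomeres, by these medians, in 48 of the 54 members tested (88.9%), against 71.9% of all genes tested. At the low end stood Prpf8 (-8.0%), Srsf4 (-1.70%), Lsm8 (-0.256%), Lsm12 (0.156%) and Sf3b3 (0.756%), where a share near or below 0 means that sisters differed as much as unrelated blastomeres did. Srsf4 was at 0 in 12 of 55 embryos.

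**Figure D4:**
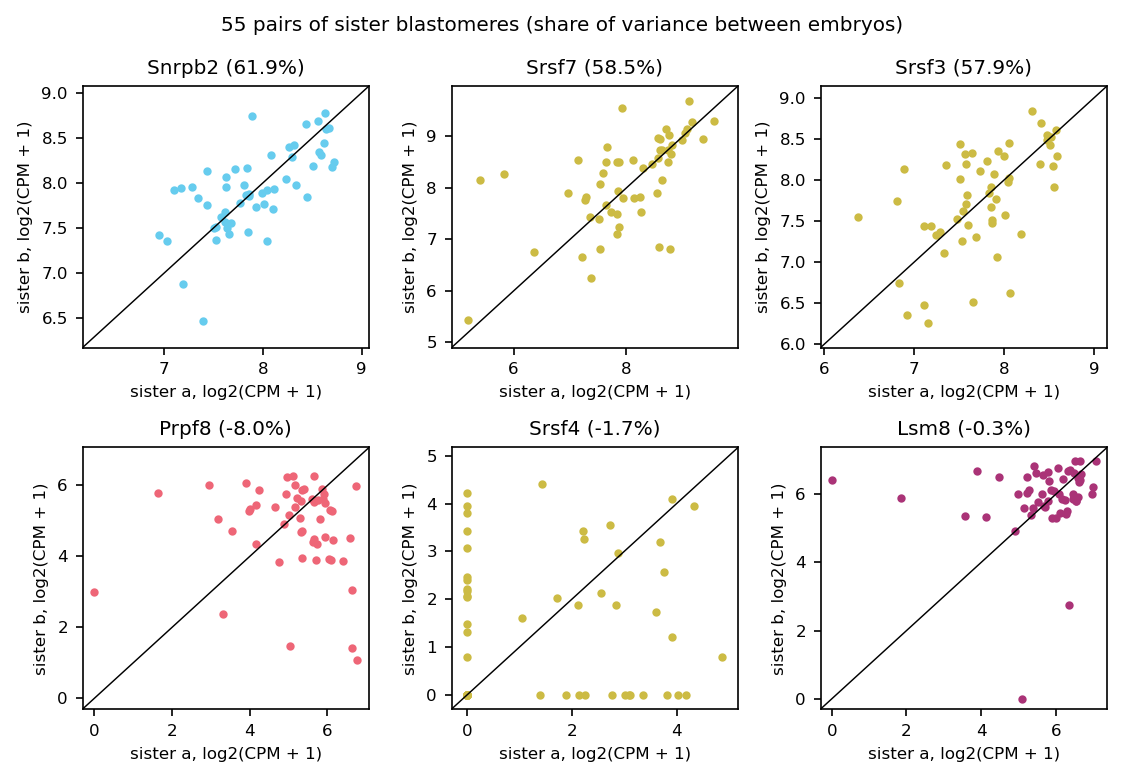
Log2(CPM + 1) of sister a against sister b in 55 embryos for the 3 members with the highest (top) and the 3 with the lowest (bottom) share of variance between embryos; the line marks equal levels and the letters a and b carry no order. Pairs of Snrpb2 follow the line (share 61.9%), and those of Prpf8 do not (-8.0%).

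By role, 6 of 7 Sm genes, 3 of 4 U1 and U2 proteins, 7 of 10 SR genes, 3 of 8 SF3 genes, 3 of 12 PRPF genes, 1 of 5 other LSM genes and 0 of 8 LSM ring genes were called, with median shares of 37.3%, 34.98%, 38.4%, 23.7%, 20.01%, 9.496% and 16.3%. Level moved with the call. Of the 27 members with the higher blastomere levels (median over blastomeres 107.8 to 622 CPM) 18 were called, with a median share of 33.7%, and of the 27 with the lower levels (1.55 to 100.05 CPM) 5, with 10.01%. Lsm14a had a high level but a small spread between embryos (SD 0.06 between and 0.18 within embryos, log2) and a share of 10.8%. The total count itself had a share of 33.5% between embryos, and with depth covariates 22 of the 23 calls passed. Sisters also sat in neighbouring wells, so likeness by embryo and by position on the plate cannot be told apart. In all 62 deposited pairs, including those with a blastomere under 9500 detected genes, 6 of the 23 calls passed (Snrpa1, Snrpb2, Snrpd3, Snrpe, Srsf3 and Srsf10). The share over all genes fell as well, from 20% to 7.96% of 11684. In 48 pairs with a mitochondrial share under 2%, 16 of the 23 calls passed, against 18.2% of 11682 genes called. The Sm genes Snrpd2, Snrpe, Snrpf and Snrpg were among those lost there. On plate 1 alone 16 of the 23 calls passed and 17 members in all, against 21.7% of 11236 genes. In the 7 further splicing lists 37 genes were called, 31.4% of those tested against 20% of all genes, among them Srpk2 (59.97%), Cdc5l (57.8%), Tgs1 (55.9%) and Snrnp27 (52.9%).

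Whether sisters differed more at 1 ICSI site was tested on the size of their log2 difference. No member of 54 passed, with 5 at an unadjusted p under 0.05, against 0.154% of 11712 genes called and 9.40% at an unadjusted p under 0.05 (limma). Lsm3 (adjusted p = 0.150), Lsm10 (0.233) and Lsm5 (0.287) had the smallest p, and on plate 1 alone Lsm10 passed (adjusted p = 0.0445).

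After culture to the blastocyst, no member of 55 varied between embryos beyond the difference of monozygotic twins (limma, 4 at an unadjusted p under 0.05), against 1.28% of 9773 genes called and 13.3% at an unadjusted p under 0.05. With 19 pairs the test held fewer embryos than that of the 55 sister pairs, and the difference between the stages was not tested. The shares were highest for Snrpd3 (48.3%, adjusted p = 0.528), Srsf3 (46.7%, 0.257), Lsm4 (46.2%, 0.527), Snrpb2 (45.5%, 0.305) and Sf3a1 (44.8%, 0.565). They were lowest for Srsf5 (-32.9%), Lsm10 (-31.8%), Snrpa (-24.9%), Lsm5 (-22.8%) and Lsm14b (-19.5%). Srsf3 and Snrpb2 were thus among the 5 highest shares at both stages. In the further lists 1 gene was called, Coil, which encodes the Cajal body scaffold coilin (88.1%).

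Twin blastocysts were compared with intact ones, with the counts of both twins added. Of 55 members 26 passed (47.3%), 13 higher and 13 lower in twins, against 42.3% of 9379 genes (20.4% higher, 21.9% lower; edgeR with ICSI site as a covariate), and 32 members had an unadjusted p under 0.05, against 49.6% of genes. With RLE factors 25 members passed, 18 higher and 7 lower, against 42.6% of 9379 genes (2155 higher, 1845 lower). Median log2 fold changes (twin minus intact) were 0.05 over members and -0.01 over all genes, and 0.11 and 0.05 under RLE factors. Intact libraries had larger SDs. The median over members of the SD of log2(CPM + 1) was 0.57 among 31 intact libraries and 0.30 and 0.25 among the 19 a and 19 b twins, and was 0.40 in the 24 intact libraries with at least 10000 detected genes. In those 24, 32 members passed, 17 higher and 15 lower, against 50.3% of 9550 genes (2311 higher, 2490 lower), and 25 of the 26 calls were kept, with Srsf5 lost. The members gained there included Lsm1 (0.35), Prpf6 (0.30), Lsm2 (0.28) and Snrpd1 (0.27), higher in twins. Lsm14a (-0.28) and Sf3b3 (-0.23) were gained as lower. Total counts of twin pairs (1676976 to 3095134) and intact blastocysts (234099 to 1254428) did not overlap. With counts thinned to 500000 per embryo (19 twin pairs, 25 intact) 23 of the 26 calls were kept. There 27 of 54 members passed, against 47.2% of 7953 genes. With log2 total count as a covariate, which cannot be told apart from the group, 4 calls were kept (Srsf9, Snrpd3, Sf3b5 and Sf3a3). In that fit 8 of 55 members passed, all higher in twins, against 15.2% of 9379 genes (578 higher, 847 lower).

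Srsf9 had the largest positive log2 fold change of the members. It was at 204 to 332 CPM with a median of 246 in twins and 20.9 to 206 CPM with a median of 106.3 in intact blastocysts, with 1.11 ± 0.14 on the log2 scale (adjusted p = 2.57e-09, edgeR), and 30 of 31 intact blastocysts lay below every twin pair. Srsf2 was at 147 to 240.1 CPM with a median of 185 in twins and 0 to 177 CPM with a median of 103.4 in intact blastocysts (0.84 ± 0.17, adjusted p = 5.92e-05). The other SR genes called were lower in twins, with -0.36 for Srsf1, -0.34 for Srsf3, -0.33 for Srsf5 and -0.30 for Srsf11, of which Srsf5 and Srsf11 failed under RLE factors, and Srsf5 (adjusted p = 0.0879) with the 24 intact libraries too. Snrpa (0.71 ± 0.16), Snrpa1 (0.40) and Snrpc (0.36) made 3 of 4 U1 and U2 proteins higher in twins. Snrpa was at 60.99 to 112.1 CPM with a median of 88.9 in twins and 15.4 to 98.2 CPM with a median of 48.9 in intact blastocysts. In the Sm ring Snrpb (0.34) and Snrpd3 (0.33) were higher and Snrpg (-0.26) and Snrpe (-0.25) lower. Of the LSM rings 3 of 8 genes were higher with all 31 intact blastocysts, namely Lsm3 (0.66 ± 0.16), Lsm6 (0.49) and Lsm4 (0.42), and none was lower. Of these and the further genes below, Snrpg, Snrpe, Sf3a1 and Prpf3 also failed under RLE factors.

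Lower in twins were 4 of 13 PRPF genes and none was higher. Prpf19 was at 10.9 to 65.3 CPM with a median of 34.1 in twins and 11.96 to 306 CPM with a median of 62.8 in intact blastocysts (-1.39 ± 0.26, adjusted p = 1.48e-05), and Prpf38b at 48.8 to 116.8 CPM with a median of 82.5 in twins and 6.97 to 929.8 CPM with a median of 133.7 in intact blastocysts (-1.36 ± 0.28, adjusted p = 1.14e-04). Without the 7 low-gene libraries the highest intact value was 123.1 CPM for Prpf19 and 375 CPM for Prpf38b, and the log2 fold changes were -0.95 and -1.07. The kinase Prpf4b (-0.70 ± 0.14) and Prpf3 (-0.53) followed. Lsm14b had the most negative value of all members (-1.67 ± 0.29, adjusted p = 3.75e-06), at 9.30 to 30.4 CPM with a median of 18.2 in twins and 0.871 to 214 CPM with a median of 41.7 in intact blastocysts, and -1.31 without those libraries. Its paralog Lsm14a stood at -0.12 and did not pass, but passed without those libraries (-0.28, adjusted p = 0.0048, edgeR). Lsm11 was higher (0.77). In SF3A and SF3B, Sf3b5 (0.40 ± 0.10) and Sf3a3 (0.36) were higher and Sf3a2 (-0.85 ± 0.23) and Sf3a1 (-0.34) lower. Beside these values, Dppa3 was at 329 to 683 CPM in twins and 0 to 403 CPM in intact blastocysts, the 5 inner cell mass markers summed to 547 to 828 and 70.1 to 706 CPM, and the 5 trophectoderm markers to 2768 to 3361 and 2417 to 5706 CPM, and their part in these results was not tested.

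**Figure D5:**
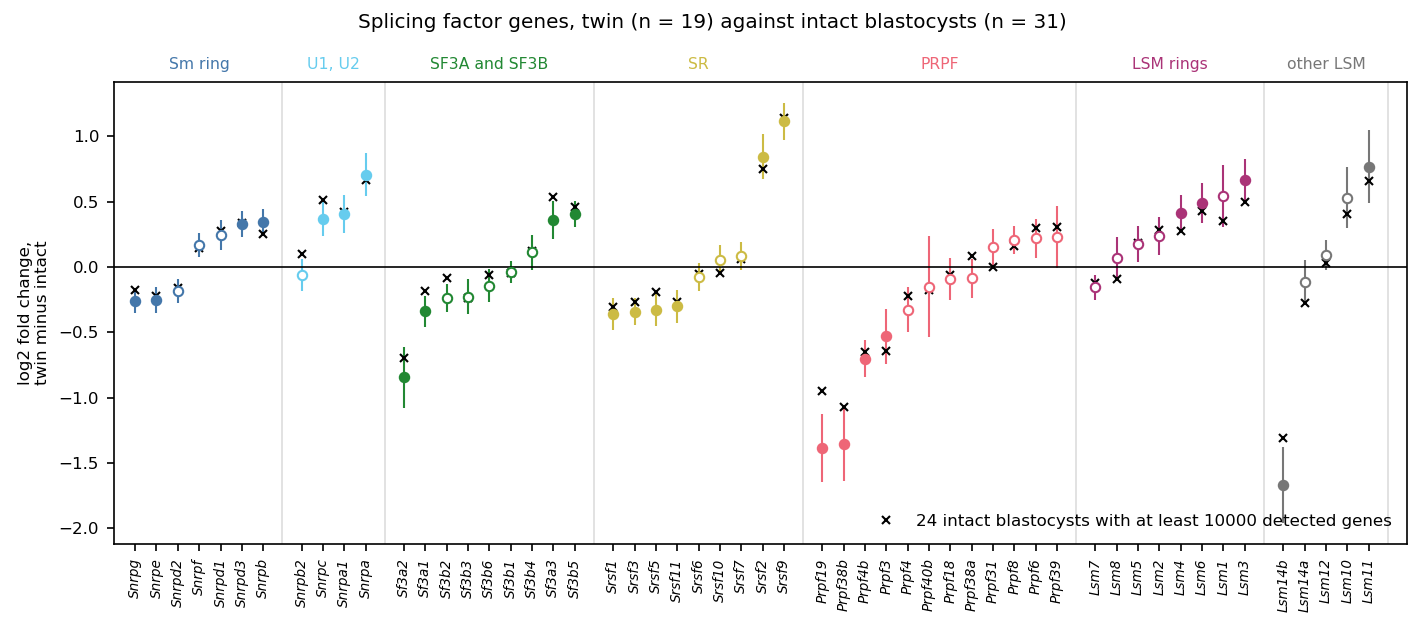
Log2 fold change (twin minus intact blastocyst) of 54 of the 55 members tested, by role group, as edgeR estimates with 1 SE, filled where the adjusted p was at most 0.05. Crosses are the estimates with the 24 intact blastocysts of at least 10000 detected genes; Srsf9 moves from 1.11 to 1.14 and Lsm14b moves from -1.67 to -1.31.

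The further splicing lists gave 22 genes higher and 36 lower in twins, or 49.2% of those tested against 42.3% of all genes. Of 26 hnRNP genes 13 were lower and 1 higher, with Ptbp3 at -1.07 and Hnrnpa3 at -0.66, and of 16 SR kinases and SR-related genes 10 were lower and 2 higher, with Clk1 at -1.50 and Luc7l2 at -1.03. All 5 of 17 snRNP assembly genes that were called were higher, with Gemin7 at 1.25 and Larp7 at 0.63. Of the 23 further snRNP genes 5 were higher and 7 lower, of 20 catalytic-step genes 4 and 3, of 9 minor spliceosome genes 4 and 2, and of 7 exon junction genes 1 and 1. Whether the twin-to-intact difference depended on the ICSI site was tested as an interaction. No member of 55 passed, 1 was at an unadjusted p under 0.05, and 0% of 9379 genes were called with 1.89% at an unadjusted p under 0.05. The smallest p belonged to Lsm11, Srsf7 and Snrpc, each with an adjusted p of 1. Lsm11 was at 40.1 (28.9 to 43.4) CPM in contralateral twins and 11.1 (0 to 22.8) CPM in contralateral intact blastocysts, against 24.97 (15.96 to 65.6) and 17.3 (8.42 to 37.7) CPM after ipsilateral and 34.1 (18.8 to 38.6) and 20.4 (0 to 68.7) CPM after equatorial ICSI.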

How the data were processed

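Raw read counts of 32285 genes were deposited by the authors as whole numbers, in 1 table of 125 blastomeres and 1 of 69 blastocysts. Libraries came from the TaKaRa SMART-Seq Single Cell Kit, which carries no molecular identifiers, and were sequenced on an Illumina NovaSeq instrument. The submitters' processing notes and the study's methods name Trimmomatic 039, FastQC 0.12.1 and STAR 2.7.10b in its SmartSeq mode without strand, on GRCm38 with GENCODE annotation. Part of the blastomeres were read in pairs, of which the first reads, cut to 100 bases, were kept, and the others, like the blastocysts, as single reads of 100 bases. Without strand, reads of a gene and of a gene overlapping it on the other strand cannot be told apart.

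Embryos with both blastomeres at 9500 or more detected genes were kept (55 of 62 pairs), and blastocysts needed 4000. Counts of sisters or twins were added. Each replicate is 1 embryo, as the labels number them. TPM used gene lengths of GENCODE M21, over all annotated exons, which held 32235 of the 32285 genes. Differences were tested on all genes with the quasi-likelihood test of edgeR 4.0.16 (R 4.3.3, TMM factors, filterByExpr) at a Benjamini-Hochberg adjusted p of 0.05, with plate as a covariate between ICSI sites and ICSI site as a covariate between stages and between twins and intact blastocysts. The spread within and between pairs was tested with limma 3.58.1 on log2 CPM with a prior count of 1. Fits were tested on simulated data. Alternatives included DESeq2 1.42.0, and rank-sum tests on CPM and TPM used 100000 permutations.

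The members and gene lists were chosen with earlier results of these data known. Named members are up to 12 per direction by adjusted p, or the 3 with the smallest p where fewer than 3 passed, the 5 highest and 5 lowest shares for sisters and twins, the highest and lowest TPM of each role group, and up to 2 genes per pathway list and comparison. Members outside this rule that complete a role group were named after their values were seen. Counting error limits low values; the smallest intact library held 234099 counts. For 1 member, which stays in the fits and the counts, no value of its own is reported here.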

Additional observations from a re-analysis of the deposited data

Results flagged for a closer look

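Snrpc, which encodes a protein of the U1 snRNP, was at 233.9 CPM in 1 contralateral twin pair, while the other 5 contralateral twin pairs lay between 137 and 167 CPM. The gap to the nearest pair was 0.69 of the whole range of the 6 pairs, above the limit for groups of 6. Of 44 groups looked at in this way 1 stood out, and chance alone gives about 1 in 20. The pair held 2689584 counts, the highest total of its group.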

How the results depend on the processing

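Groups could not be compared in pairs, because the labels number embryos uniquely and groups share no number. Pairs were used only within an embryo, for sisters and twins. Alternatives with depth covariates for sisters and twins, with RLE factors on thinned counts, on plate 2 alone between ICSI sites, and with intact blastocysts limited by total count or by detected genes were chosen after seeing the data. For contralateral against equatorial ICSI, 4 members passed in 48 pairs instead of 7, with 8.48% of all genes instead of 13.2%. On plate 2 alone 0 members and no gene passed, and Lsm10 (-0.65), Lsm3 (-0.30) and Snrpd3 (-0.26) changed sign on the log2 scale. For ipsilateral against equatorial ICSI 3 members passed, with 6.65% of all genes. The count was 7 with DESeq2 (9.84% of genes), 5 without the plate term (7.64%) and 6 on plate 1 alone (8.61%). On plate 2 alone (3, 8 and 2 embryos) it was 0 (0%). It was 5 in 62 pairs (8.49%), 0 with depth covariates (0.388%), and 7 and 9 by rank-sum tests on TPM and CPM (13.9% each). For contralateral against ipsilateral ICSI it was 3 without a filter on low counts, where 1577 of 24964 genes passed. Sisters gave 6 members in 62 pairs instead of 23, with 7.96% of all genes instead of 20%. Their difference by site gave 1 member on plate 1 alone instead of 0, with 0.089% of genes instead of 0.154%. Twin against intact blastocysts gave 8 instead of 26 with total count as a covariate, with 15.2% of all genes instead of 42.3%. In that fit the log2 fold changes of 12 named members changed sign, namely Lsm3 (-0.16), Snrpb (-0.30), Lsm4 (-0.061), Lsm11 (-0.13), Lsm14b (0.34), Prpf19 (0.31), Prpf38b (0.31), Srsf3 (0.43), Snrpg (0.10), Sf3a1 (0.63), Srsf5 (0.54) and Snrpe (0.077). Totals of the 2 groups do not overlap, so that total count and group cannot be told apart in that fit; for the other changes the cause was not tested. Members that the ranking rule names kept direction and side of the threshold in 239 of 239 values for the stages, 62 of 77 for contralateral and 26 of 33 for ipsilateral against equatorial ICSI, and 216 of 264 for twin against intact blastocysts. For the shares of sisters and twins only the side of the threshold was compared. It was kept in 66 of 70 values for sisters and 40 of 40 for twins, where no member passed in any setting. Of the 23 other members called between the stages, 11 lost the call or changed sign in at least 1 alternative. These were Lsm11, Srsf2 and Srsf4 against twin blastocysts, and Prpf18, Sf3b1 and Srsf5 with total counts. With only the 2-cell embryos of plate 2 they were Lsm6, Prpf18, Sf3a3, Sf3b6, Snrpa and Srsf1. Sf3a3 also did so without the site term and in both limits on intact blastocysts. A member that an alternative no longer tested is left out of these counts. Between the stages this held for Prpf40b, Sf3a2 and Srsf4 with counts thinned to equal totals, and for Srsf4 with only the 2-cell embryos of plate 2. Depth limits Srsf12, Prpf40b, Srsf4 and Sf3a2, whose counts were at or near 0 in many 2-cell embryos.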
